A study of Homo sapiens with 24 samples.

Results

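The proteasome subunit genes were taken as the rows of the deposited tables that name 1 gene and whose symbol is PSM, a letter from A to G and a number, together with POMP, ADRM1, NFE2L1 and DDI2. The rule used symbols and no measured value. It found 52 rows with 51 symbols among 19242 single-gene rows, since PSMA2 has a row under each of 2 Ensembl identifiers. Of these, 18 rows belong to the 20S core (PSMA and PSMB) and 20 to the 19S cap (PSMC and PSMD). PSMC3IP also matched by its symbol, but it encodes a recombination factor and is left out of every count of proteasome genes. After a filter on low counts 39 rows were tested, 38 of them proteasome genes.

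Poly(A) RNA was measured by SLAM-seq in 24 libraries of HEK293, a widely used human line derived from embryonic kidney. The sample titles name Flag/HA, an epitope tag, in both lines. The control line is labelled as overexpressing Flag/HA, and the other line as overexpressing ZC3H7B, a zinc finger RNA-binding protein (ZC3H7B-OE). Every library, control included, came from cells given 100 µM 4-thiouridine (s4U) and 1 µg/mL doxycycline for 24 h and then 10 mM uridine as a chase of 0, 2, 4 or 6 h, with 3 libraries for each line and time. RNA made during the pulse carries s4U, which reads as C after alkylation, so reads with T>C conversions are called labelled. Both lines are in 1 cell line, and the labels do not say whether either line is a single clone, nor whether the 3 libraries of a group were separate cultures. The p-values therefore measure only the spread between these libraries, which may be technical. In bulk RNA, fewer cells that express a gene and less RNA per cell cannot be told apart.

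The proteasome degrades proteins tagged with ubiquitin. Its 20S core is a barrel of stacked rings, with alpha subunits (PSMA) that form the gate and beta subunits (PSMB) that hold the proteolytic sites. The 19S cap has a base of ATPases (PSMC), which unfold substrates, and a lid and receptors (mostly PSMD), which bind ubiquitin and remove it. PSMG proteins and POMP help to build the core, PSME proteins and PSMF1 bind its ends, and the transcription factor NFE2L1, released from the endoplasmic reticulum after cleavage by the protease DDI2, raises proteasome genes when proteasome activity is short.

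Total reads per library ran from 1502068 to 3676254, and labelled reads from 830574 to 1579744. All libraries of 0 h and 2 h had at most 2053311 reads, and all of 4 h and 6 h at least 2480380. Depth and chase time therefore went together. The library of control at 0 h, replicate 3, stood apart: it had the fewest reads, 11032 genes with a read against 12005 to 13201 in the other libraries, and a TMM scaling factor of 0.724 against 0.925 to 1.08. Results that rest on control at 0 h are therefore also given without it where a call or a size depends on it. ZC3H7B was higher in ZC3H7B-OE over the mean of the 4 times (log2 difference 0.28, SE 0.08, adjusted p = 0.0035, and 0.22, adjusted p = 6.2e-04, without that library). At single times the difference of ZC3H7B was called at 0 h (log2 0.55, adjusted p = 0.0070) and not at 2, 4 or 6 h (-0.09, 0.34 and 0.32, adjusted p = 0.81, 0.13 and 0.17). Of the HEK293 markers, KRT8 had 724 reads over all libraries, KRT18 521, VIM 241, LHX1 76, PAX2 13 and NEFM 2. The summed level of that list was 14.7 to 48.1 CPM in control and 16.5 to 39.8 CPM in ZC3H7B-OE. Of the epithelial markers KRT10 had 8595 reads, EPCAM 1281 and CDH1 1. Their sum was 113 to 735 CPM in control and 120 to 295 CPM in ZC3H7B-OE. Leukocyte markers PTPRC and CD3E had no read. Their list summed to 6.45 to 28.6 CPM in control and 175 to 280 CPM in ZC3H7B-OE, nearly all of it LCP1, an actin-bundling gene. The part of LCP1-expressing cells in the results was not tested.

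The counts did not cover the complex evenly. DDI2, PSMG4 (a core assembly chaperone), PSMA8 (the testis form of an alpha subunit) and PSMB11 (the thymus form of a beta subunit) had no read in any library. A count of 0 allows up to 3 reads, which is 0.816 to 2.00 CPM, the reads of a gene scaled to library size, in these libraries. This limit used total reads alone, whereas the CPM of genes are also scaled by the TMM factor. For control at 0 h, replicate 3, with a factor of 0.724, the limit on that scale is above 2.00 CPM. Genes that every proteasome needs were also close to 0: over all 24 libraries PSMB5, the chymotrypsin-like subunit, had 4 reads, PSMD8, a lid subunit, 18, and PSMB4 and PSMA6, structural core subunits, 111 each. The immune subunits PSMB8 and PSMB9 had 4 reads each, the activator PSME2 8, the assembly chaperone PSMD5 1, and the second PSMA2 row 24. These 13 rows were not tested, and their counts cannot be read as expression of the genes. Reads were also concentrated: PSMA4 held 31.2% and PSMB3 25.8% of all core reads, and PSMD12 28.3% of cap reads. Levels are compared within a gene and not between genes, because gene lengths are not in the tables. A further 6 rows name a proteasome gene together with another identifier and are not members; the row shared by C7orf25 and PSMA2 was lower in ZC3H7B-OE (log2 -0.43, SE 0.10, adjusted p = 0.00047).

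The first comparison asked which proteasome genes differed between ZC3H7B-OE and control. Over the mean of the 4 times, PSMB2, PSMA3, PSMC2, PSMD10, PSMD12, POMP and PSMG2 were lower, and PSMC1, ADRM1, PSME4 and NFE2L1 were higher. That is 7 lower and 4 higher of 38 by edgeR's quasi-likelihood test with Benjamini-Hochberg adjustment over all entries, against 25.4% lower and 20.3% higher among the 10038 entries tested; a gene is called here where its adjusted p is under 0.05. The median log2 difference of the 38 genes was -0.03, against 0.01 for all entries. With control at 0 h, replicate 3 left out, 8 were higher and 6 lower, against 21.7% and 24.8% of 10526 entries, so that which direction held more genes depended on that library. In neither fit was the share of members called in a direction above that of all entries.

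**Figure D1:**
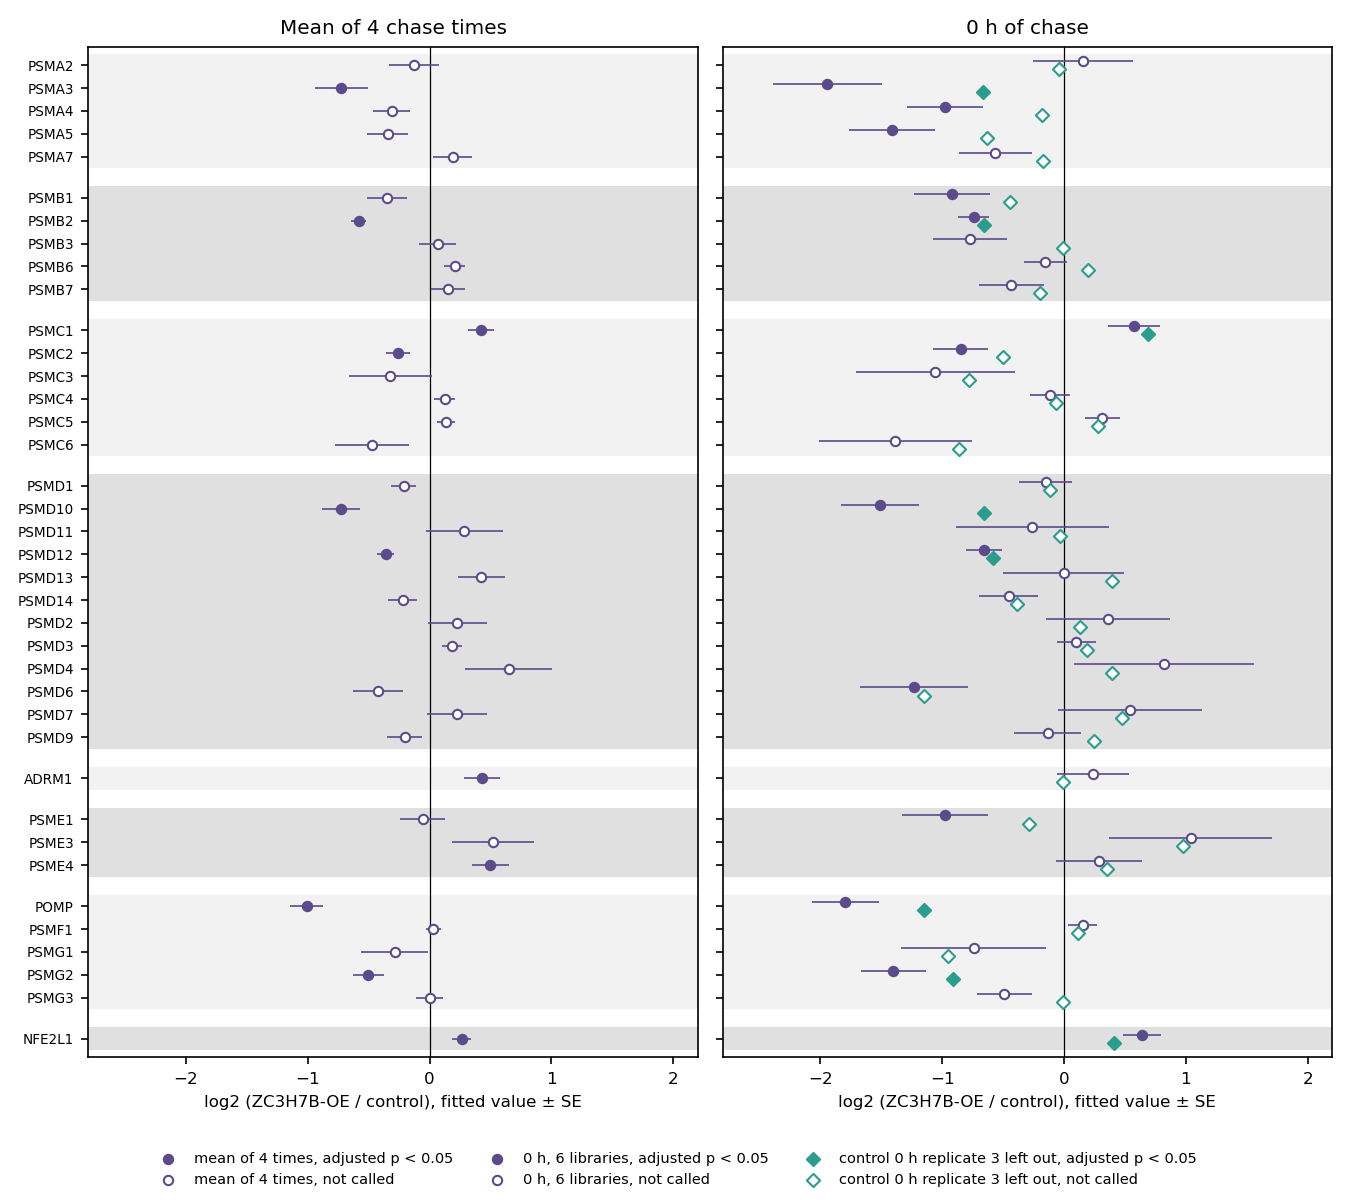
Fitted log2 difference of ZC3H7B-OE from control (x axis) for each tested proteasome gene (y axis, grouped by shaded bands in the order 20S alpha, 20S beta, 19S ATPase, 19S non-ATPase, ADRM1, activators, inhibitor and assembly, NFE2L1), with bars of ± 1 SE; filled symbols are called. The left panel shows the mean of 4 times, and the right panel 0 h with all 6 libraries (circles) and with control replicate 3 left out (diamonds, no SE drawn), where most core genes lie closer to 0.

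NFE2L1 was the regulator that could be measured. In control the libraries of 0 h read 678, 637 and 364 CPM, those of 2 h 835, 756 and 633, those of 4 h 553, 553 and 638 and those of 6 h 606, 516 and 600. In ZC3H7B-OE the libraries of 0 h read 893, 861 and 872 CPM, those of 2 h 757, 886 and 676, those of 4 h 722, 590 and 670 and those of 6 h 594, 618 and 721. The lines did not overlap at 0 h and overlapped at each later time, and the low control library at 0 h was replicate 3. For NFE2L1 the log2 difference was 0.26 (SE 0.08, adjusted p = 0.0064) over the mean of the times and 0.64 (SE 0.16, adjusted p = 0.0023) at 0 h. Without control at 0 h, replicate 3, these were 0.20 (adjusted p = 0.0013) and 0.41 (adjusted p = 0.0071). At 2, 4 and 6 h the log2 difference of NFE2L1 was 0.06, 0.18 and 0.17, with no call.

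NFE2L1 acts through antioxidant response elements, whose core is TGACNNNGC. These letters were searched on both strands of the 250 bases before the start of each gene in RefSeq (GRCh38.p14). They were found in 10.9% of 35116 promoters and in 14 of the 44 proteasome gene symbols with a promoter in the table, 3 of 13 core and 5 of 19 cap symbols. The shares are descriptions, and some symbols have more than 1 promoter. A symbol was counted if any of its promoters matched, while the percentage counts each promoter by itself. The counts of symbols and the percentages of promoters are therefore not in the same unit. CCAAT, a box common in housekeeping promoters, was in 32.0% of promoters and 21 of the 44 symbols, and the GC box core GGCGGGG in 29.5% and 21 of 44. Each motif was counted on its own, and matches of different motifs may overlap. The 14 symbols are PSMA4, PSMB3, PSMB9, PSMC5, PSMD3, PSMD5, PSMD9, PSMD12, ADRM1, PSME1, PSME2, PSME4, PSMG1 and PSMG2. Windows of 6 of them follow as a selection, from the gene's own strand, 5′ to 3′, with the TGACNNNGC match or its reverse complement in capitals: PSMA4 at chr15:78540625-78540703, PSMB3 at chr17:38752602-38752680, PSMD3 at chr17:39980735-39980806, PSMC5 at chr17:63827629-63827707 and ADRM1 at chr20:62302724-62302802 on the plus strand, and PSMD12 at chr17:67366699-67366777 on the minus strand.
PSMA4: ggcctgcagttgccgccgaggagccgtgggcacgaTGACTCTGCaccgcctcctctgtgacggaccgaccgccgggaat
PSMB3: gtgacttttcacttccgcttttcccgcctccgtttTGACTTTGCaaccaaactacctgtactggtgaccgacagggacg
PSMD3: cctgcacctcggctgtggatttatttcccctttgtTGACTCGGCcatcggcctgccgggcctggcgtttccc
PSMC5: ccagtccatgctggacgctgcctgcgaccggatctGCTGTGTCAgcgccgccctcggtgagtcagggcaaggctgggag
ADRM1: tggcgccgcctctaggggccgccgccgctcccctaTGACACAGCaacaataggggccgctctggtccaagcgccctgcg
PSMD12: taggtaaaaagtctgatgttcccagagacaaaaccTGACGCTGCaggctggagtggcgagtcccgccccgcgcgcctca
Of the 6, PSMD12 was lower and ADRM1 higher in ZC3H7B-OE over the mean of the times, and PSMA4, PSMB3, PSMD3 and PSMC5 were not called. Without control at 0 h, replicate 3, PSMB3 and PSMD3 were called higher. Among the other 8 symbols PSME4 was higher and PSMG2 lower, PSMD9, PSME1 and PSMG1 were not called, and PSMB9, PSMD5 and PSME2 were not tested.

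In the 20S core, 2 of 10 tested genes were lower and none higher over the mean of the times, with a median log2 difference of -0.22. PSMB2, a non-catalytic beta subunit, was lower at every time. In control the libraries of 0 h read 282, 267 and 328 CPM, those of 2 h 254, 284 and 237, those of 4 h 194, 199 and 209 and those of 6 h 220, 193 and 228. In ZC3H7B-OE the libraries of 0 h read 167, 189 and 168 CPM, those of 2 h 168, 187 and 177, those of 4 h 135, 128 and 127 and those of 6 h 155, 163 and 161. Every control library was above every ZC3H7B-OE library of the same time. For PSMB2 the log2 difference was -0.58 (SE 0.06, adjusted p = 2.8e-09) over the mean of the times, and -0.74, -0.54, -0.63 and -0.42 at 0, 2, 4 and 6 h, called at each time. Of the 38 genes, PSMB2 alone was called at all 4 times with every library; without control at 0 h, replicate 3, POMP and PSMD10 were called at all 4 as well.

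The catalytic subunit PSMB6 and the structural subunits PSMB1 and PSMB3 were not called over the mean of the times. PSMB6 read 248, 253 and 465 CPM in control and 304, 248 and 310 CPM in ZC3H7B-OE at 0 h, and 135, 111 and 109 CPM against 143, 159 and 177 CPM at 6 h. Its log2 difference was 0.21 (SE 0.09, adjusted p = 0.052), and 0.29 (adjusted p = 6.8e-05) without control at 0 h, replicate 3. PSMB3 likewise had a log2 difference of 0.07 (adjusted p = 0.75), and of 0.25 (adjusted p = 0.00052) without that library. PSMB1 was lower at 0 h only with it (log2 -0.92, SE 0.31, adjusted p = 0.025, against -0.45, adjusted p = 0.31). PSMB7, the trypsin-like subunit, was higher at 4 h (log2 0.98, adjusted p = 0.011), with 16.7, 15.9 and 8.78 CPM in control and 19.9, 33.4 and 29.3 CPM in ZC3H7B-OE.

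Among alpha subunits PSMA3 was lower. It read 102, 111 and 577 CPM at 0 h in control, against 65.3, 66.9 and 68.4 CPM in ZC3H7B-OE, and 97.4, 92.5 and 89.6 CPM against 63.5, 80.1 and 69.2 CPM at 6 h. The control library at 577 CPM was replicate 3, and the lines overlapped at neither time. The log2 difference of PSMA3 was -0.72 (SE 0.22, adjusted p = 0.011) over the mean of the times and -1.94 (SE 0.45, adjusted p = 0.0029) at 0 h. Without that library it was -0.41 (adjusted p = 6.9e-06) and -0.67 (adjusted p = 0.0018). PSMA4 read 657, 752 and 2286 CPM in control and 579, 734 and 556 CPM in ZC3H7B-OE at 0 h. The same library thus set its call at 0 h (log2 -0.98, SE 0.31, adjusted p = 0.023), which became -0.18 (adjusted p = 0.36) without it. PSMA5 followed the same course, with 49.7, 33.7 and 140 CPM in control and 30.3, 30.0 and 20.3 CPM in ZC3H7B-OE at 0 h. Its log2 difference there was -1.41 (SE 0.35, adjusted p = 0.0036), and -0.63 (adjusted p = 0.068) without that library. With every library PSMA7 was not called at any time, with log2 differences from -0.56 to 0.79. Without control at 0 h, replicate 3, it was called higher at 4 h (log2 0.79, adjusted p = 0.016).

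In the 19S cap, 1 of 18 tested genes was higher and 3 were lower, with a median log2 difference of -0.04. PSMC1, an ATPase of the base, was higher. In control the libraries of 0 h read 41.8, 45.1 and 55.3 CPM, those of 2 h 34.8, 36.7 and 49.1, those of 4 h 35, 39.6 and 41.6 and those of 6 h 35, 36.4 and 26.6. In ZC3H7B-OE the libraries of 0 h read 84.3, 52.3 and 74.2 CPM, those of 2 h 63.9, 40.8 and 64.3, those of 4 h 43.7, 53.1 and 51.2 and those of 6 h 40.6, 41.9 and 35.9. Its log2 difference was 0.42 (SE 0.11, adjusted p = 0.0014), and from 0 h to 6 h it was 0.58, 0.49, 0.35 and 0.28. PSMC2, another ATPase, was lower by 0.26 on the log2 scale (SE 0.10, adjusted p = 0.036). That call was among the least stable: it was lost without control at 0 h, replicate 3 (adjusted p = 0.088). The ATPases PSMC4 and PSMC5 were not called (log2 0.12 and 0.14), nor was PSMC6, which had 219 reads in all.

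PSMD12, a scaffold subunit of the lid, was lower, and its lines did not overlap at 0 h. It read 130, 127 and 152 CPM in control and 93.8, 80.4 and 84.0 CPM in ZC3H7B-OE at 0 h, and 641, 565 and 584 CPM against 446, 551 and 529 CPM at 6 h. The log2 difference of PSMD12 was -0.36 (SE 0.07, adjusted p = 7.2e-05) over the mean of the times and -0.66 (SE 0.15, adjusted p = 0.00094) at 0 h, and -0.34 and -0.58, both called, without control at 0 h, replicate 3. PSMD10, or gankyrin, is a chaperone that helps to build the base and is no subunit of the finished cap. It read 260, 273 and 924 CPM in control and 169, 175 and 162 CPM in ZC3H7B-OE at 0 h, and 255, 218 and 216 CPM against 145, 176 and 152 CPM at 6 h. All control libraries were above all ZC3H7B-OE libraries at both times. The log2 difference of PSMD10 was -0.73 (SE 0.16, adjusted p = 0.00076) over the mean of the times and -1.51 (SE 0.32, adjusted p = 0.0013) at 0 h, and -0.52 (adjusted p = 2.0e-11) and -0.66 (adjusted p = 6.0e-05) without that library.

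PSMD3, a lid subunit, was not called (log2 0.19, SE 0.08, adjusted p = 0.056), although it passed without control at 0 h, replicate 3 (log2 0.20, adjusted p = 0.011). PSMD4, a ubiquitin receptor, had the highest fitted difference of the cap (log2 0.65, SE 0.35, adjusted p = 0.14), but only 184 reads in all 24 libraries. At that depth it was not separable from 0. ADRM1, another ubiquitin receptor of the cap, was higher. It read 23.6, 21.2 and 10.1 CPM in control and 23.7, 25.2 and 18.0 CPM in ZC3H7B-OE at 0 h, and 14.5, 8.93 and 11.5 CPM against 18.9, 24.1 and 16.5 CPM at 4 h. The lines overlapped at 0 h and not at 4 h. The log2 difference of ADRM1 was 0.43 (SE 0.15, adjusted p = 0.018) over the mean of the times, with no call at a single time. Without control at 0 h, replicate 3, it was 0.37 (adjusted p = 0.037). ADRM1 was then also called at 4 h (log2 0.76, adjusted p = 0.036). The call of ADRM1 over the mean was lost with 4 h left out (log2 0.33, adjusted p = 0.15) and with 6 h left out (log2 0.42, adjusted p = 0.065).

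POMP, which matures the core, had the lowest fitted difference of the 38 genes. In control the libraries of 0 h read 105, 136 and 334 CPM, those of 2 h 68.0, 80.0 and 78.3, those of 4 h 81.0, 70.2 and 63.8 and those of 6 h 85.5, 72.1 and 89.0. In ZC3H7B-OE the libraries of 0 h read 48.7, 65.9 and 47.5 CPM, those of 2 h 54.1, 46.2 and 49.5, those of 4 h 35.7, 49.0 and 54.8 and those of 6 h 43.3, 37.4 and 41.8. Every control library was above every ZC3H7B-OE library of the same time. The log2 difference of POMP was -1.01 (SE 0.14, adjusted p = 9.0e-07) over the mean of the times, and -1.79, -0.59, -0.63 and -1.01 at 0, 2, 4 and 6 h, with calls at 0 h and 6 h. With control replicate 3 of 0 h left out, the mean difference was -0.85 (adjusted p = 3.4e-13) and that at 0 h was -1.15 (adjusted p = 1.3e-06), and POMP was then called at 2 h and 4 h too (adjusted p = 0.013 and 0.0027).

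PSMG2, an early chaperone of the alpha ring, was called at 0 h and at no later time. It read 33.4, 38.1 and 84.8 CPM in control and 19.0, 19.9 and 18.0 CPM in ZC3H7B-OE at 0 h, and 74.7, 67.9 and 61.8 CPM against 52.5, 69.6 and 65.2 CPM at 6 h. The lines did not overlap at 0 h and did at 6 h. For PSMG2 the log2 difference was -1.40 (SE 0.27, adjusted p = 0.00013) at 0 h and -0.13 (adjusted p = 0.75) at 6 h, and -0.50 (SE 0.12, adjusted p = 0.0013) over the mean of the times. Without control at 0 h, replicate 3, the difference at 0 h was -0.91 (adjusted p = 0.0035). The call over the mean was lost when 0 h was left out of it. PSMG1, its partner, had 316 reads and no call between the lines, PSMG3 had a mean log2 difference of 0.00, and PSMF1, which binds and inhibits the core, of 0.03 (SE 0.06).

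Of the activators, PSME4, a large cap associated with histone breakdown, was higher. It read 8.85, 6.52 and 9.22 CPM in control and 10.1, 8.24 and 11.6 CPM in ZC3H7B-OE at 0 h, and 21.4, 20.3 and 14.0 CPM against 26.5, 34.0 and 25.6 CPM at 6 h. The lines overlapped at 0 h and not at 6 h. The log2 difference of PSME4 was 0.50 (SE 0.15, adjusted p = 0.0072) over the mean of the times, a call that was lost with 6 h left out (log2 0.45, adjusted p = 0.059). PSME3, a nuclear activator, had 195 reads and was not called (log2 0.52, SE 0.34, adjusted p = 0.21). PSME1, an interferon-induced activator, was lower at 0 h (log2 -0.98, SE 0.35, adjusted p = 0.034) with 26.6, 37.5 and 96.8 CPM in control and 33.8, 25.2 and 19.7 CPM in ZC3H7B-OE; without control replicate 3 it was -0.29 (adjusted p = 0.57).

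At single times the counts were as follows. At 0 h, 12 genes were lower and 2 higher of 38, against 19.5% and 11.7% of entries. The core held 5 of the lower genes, with a median of -0.76, and the cap 4, with a median of -0.14. With control replicate 3 of 0 h left out, 6 genes were lower and 2 higher, against 12.9% and 7.31%, and the median of the same 10 core genes was -0.19. At 2 h PSMB2 alone was lower and no gene higher, against 7.26% and 2.19%. At 4 h PSMB2 was lower and PSMB7 higher, against 10.9% and 6.79%. At 6 h PSMB2 and POMP were lower and none higher, against 9.23% and 6.54%. Without control at 0 h, replicate 3, the 2 h comparison had 4 lower and 1 higher, against 10.5% and 5.4%. The 4 h comparison then had 4 lower and 6 higher, against 15.2% and 11.8%, and the 6 h comparison 5 lower and 2 higher, against 14.7% and 10.7%. No proteasome gene was called for a line difference that changed along the chase, against 1.73% of entries, with 11 of 38 at an unadjusted p under 0.05. By DESeq2 there were 3 (PSMA5, PSMB7 and PSMG2), against 13.1% of 6004 entries. DESeq2 gave no adjusted p for several members, PSMD4, PSMC3 and PSMC6 among them. Its 3 calls are therefore out of fewer than 38 genes. With control at 0 h, replicate 1 left out edgeR called 10, against 8.64%. With control at 0 h, replicate 3 left out instead, edgeR called 0, against 390 of 10526 entries.

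**Figure D2:**
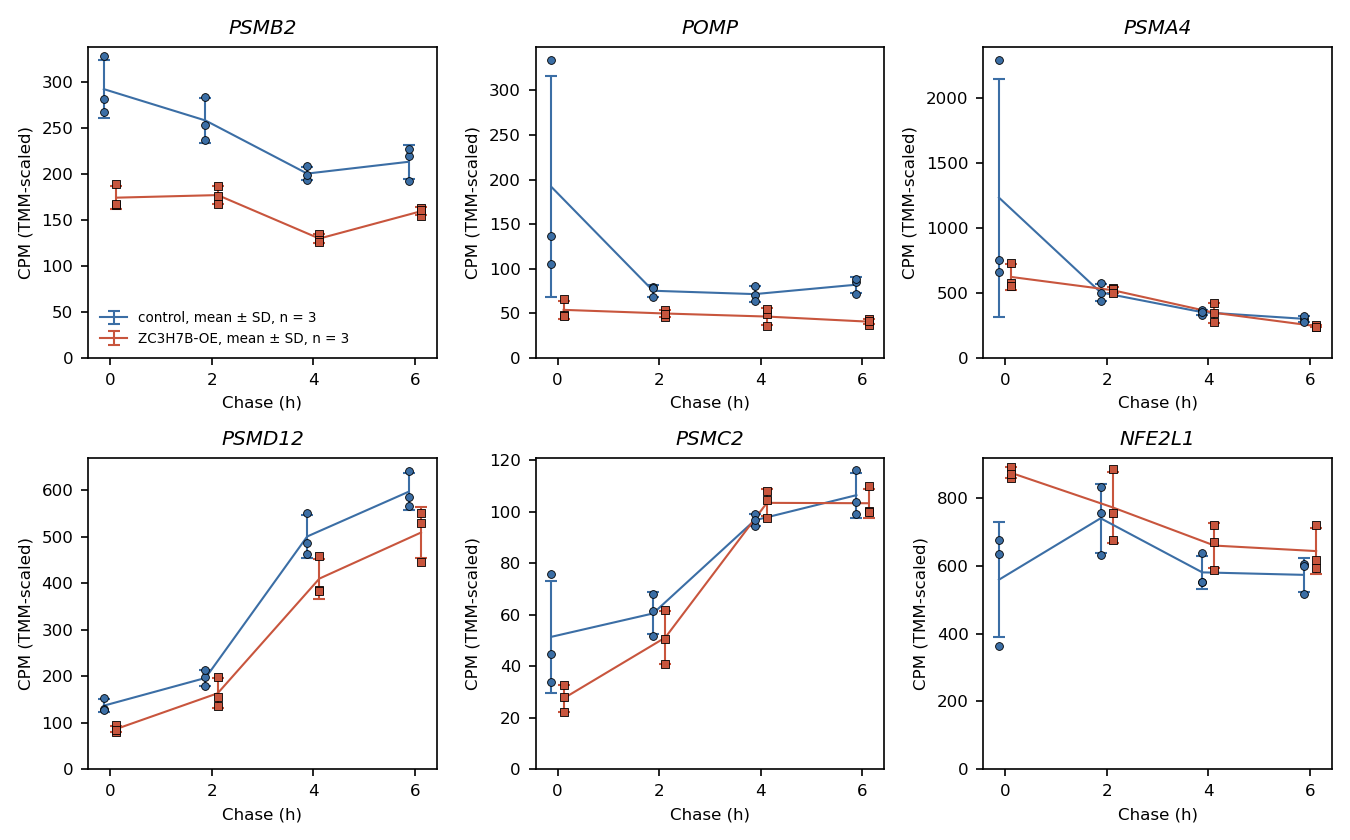
CPM scaled by TMM (y axis, from 0) against hours of chase (x axis) for 6 members, with a point for each library and lines through means ± SD (n = 3) for control (circles) and ZC3H7B-OE (squares). PSMB2 and POMP are lower in ZC3H7B-OE at every time, PSMA4 falls and PSMD12 and PSMC2 rise over the chase in both lines, and 1 control library at 0 h is far above the others for POMP and PSMA4.

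The second comparison asked how the level of each gene moved over the chase. Most tested core genes fell in both lines relative to the rest of the library, while the cap held called falls and rises. The libraries of 6 h were also all deeper than those of 0 h, and the part of depth in these changes was not tested. In control, 22 of 38 genes were lower and 3 higher at 6 h than at 0 h, against 29.9% and 30.7% of entries. In ZC3H7B-OE 16 were lower and 7 higher, against 30.6% and 32.8%. In the core, 9 of 10 fell in control, with a median log2 change of -1.45, and 6 of 10 in ZC3H7B-OE, with a median of -0.96. In the cap, 9 of 18 fell and 2 rose in control, with a median of -0.47, and 5 fell and 4 rose in ZC3H7B-OE, with a median of -0.30. The median of all entries was -0.05 in control and -0.08 in ZC3H7B-OE. With control replicate 3 of 0 h left out, 16 genes fell and 4 rose in control, against 27.8% and 31% of entries. Of these, 7 of 11 tested in the core and 5 of 18 in the cap fell, and the median of the same 10 core genes was -1.12 and of the cap -0.30. The contrast in ZC3H7B-OE uses no control library beyond the shared estimate of spread. The line differences and the chase changes in a line share the libraries of 0 h.

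**Figure D3:**
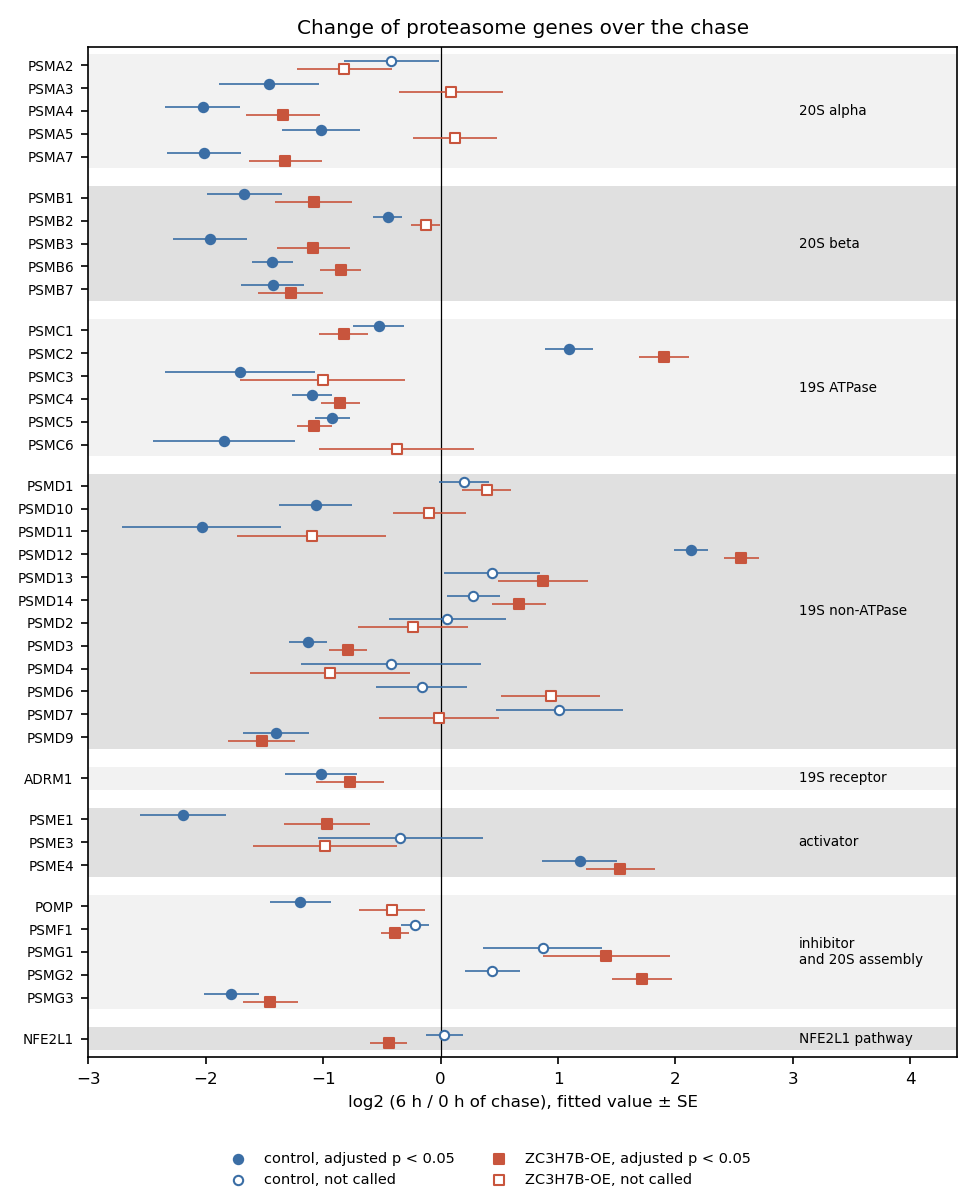
Fitted log2 change from 0 h to 6 h of chase (x axis) for each tested proteasome gene (y axis, grouped by role), with bars of ± 1 SE, in control (circles) and ZC3H7B-OE (squares); filled symbols are called. In the 2 bands of core genes no change is called above 0, while PSMC2, PSMD12 and PSME4 rise in both lines.

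PSMA4, an alpha subunit, fell over the chase. In control the libraries of 0 h read 657, 752 and 2286 CPM, those of 2 h 441, 576 and 496, those of 4 h 368, 333 and 356 and those of 6 h 303, 321 and 280. In ZC3H7B-OE the libraries of 0 h read 579, 734 and 556 CPM, those of 2 h 537, 530 and 496, those of 4 h 273, 423 and 347 and those of 6 h 239, 256 and 240. In both lines every library at 0 h was above every library at 6 h. The log2 change of PSMA4 was -2.02 (SE 0.32, adjusted p = 2.1e-05) in control, -1.21 (adjusted p = 3.2e-13) without control at 0 h, replicate 3, and -1.35 (SE 0.32, adjusted p = 0.0011) in ZC3H7B-OE.

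The other core genes that were called fell as well, by unequal amounts. PSMA7, an alpha subunit, read 44.3, 51.7 and 96.8 CPM at 0 h and 14.9, 18.9 and 12.9 CPM at 6 h in control, and 36.8, 55.2 and 34.8 CPM and then 12.8, 21.8 and 16.1 CPM in ZC3H7B-OE. Its log2 change was -2.01 (SE 0.32) and -1.32 (SE 0.31), called in both lines, and -1.61 in control without replicate 3 of 0 h. PSMB3 changed by -1.97 and -1.08, PSMB1 by -1.67 and -1.08, PSMB6 by -1.43 and -0.85, and PSMB7 by -1.43 and -1.28 on the log2 scale, each called in both lines. The control changes of PSMB3, PSMB1, PSMB6 and PSMB7 without that library were -1.19, -1.19, -1.07 and -1.18, each called. PSMB2 changed least of the called core genes in control, by -0.45 (SE 0.12, adjusted p = 0.0021), and by -0.13 (adjusted p = 0.37) in ZC3H7B-OE. In control the change of PSMB2 was -0.35 (adjusted p = 0.011) without the same library. The calls of PSMA3 (-1.47, adjusted p = 0.0064) and PSMA5 (-1.02, adjusted p = 0.011) in control rested on replicate 3 of 0 h. Without it they were -0.18 (adjusted p = 0.35) and -0.23 (adjusted p = 0.42), and in ZC3H7B-OE they were 0.09 and 0.12, not called. The tested single-gene row of PSMA2, with 448 reads, was called in neither line. Shared rows, which are not members, differed from it. The row naming PSMA2 under both identifiers fell in control (log2 -1.65, adjusted p = 0.00078), and in ZC3H7B-OE it was not called (-0.56, adjusted p = 0.20). The row shared by C7orf25 and PSMA2 fell in both lines (-1.14, adjusted p = 5.7e-06, and -1.41, adjusted p = 2.3e-07).

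In the cap, PSMD12 rose most. In control the libraries of 0 h read 130, 127 and 152 CPM, those of 2 h 197, 178 and 213, those of 4 h 551, 463 and 487 and those of 6 h 641, 565 and 584. In ZC3H7B-OE the libraries of 0 h read 93.8, 80.4 and 84.0 CPM, those of 2 h 135, 155 and 199, those of 4 h 459, 386 and 384 and those of 6 h 446, 551 and 529. In both lines the libraries of 0 h, 2 h and 4 h did not overlap one another. The log2 change of PSMD12 was 2.14 (SE 0.14, adjusted p = 2.7e-14) in control (2.23 without replicate 3 of 0 h) and 2.56 (SE 0.15, adjusted p = 3.5e-16) in ZC3H7B-OE. PSMC2 rose from 33.9, 44.6 and 75.6 CPM to 116, 99.1 and 104 CPM in control and from 27.9, 32.5 and 22.0 CPM to 100, 110 and 99.7 CPM in ZC3H7B-OE. Its log2 change was 1.10 (SE 0.20, adjusted p = 2.1e-05), or 1.46 without that library, and 1.90 (SE 0.21, adjusted p = 2.0e-09).

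The deubiquitinase PSMD14 and the lid subunit PSMD13 rose in ZC3H7B-OE (log2 0.67, adjusted p = 0.012, and 0.87, adjusted p = 0.048) and were not called in control (0.28 and 0.44); no difference between the lines along the chase was called for either. PSMD3 fell from 234, 218 and 271 CPM to 123, 97.0 and 110 CPM in control (log2 -1.13, SE 0.16, adjusted p = 3.9e-07) and from 267, 256 and 251 CPM to 140, 158 and 150 CPM in ZC3H7B-OE (log2 -0.79, SE 0.16, adjusted p = 7.3e-05). PSMC5 fell from 217, 163 and 175 CPM to 102, 87.2 and 104 CPM in control and from 214, 211 and 267 CPM to 97.5, 109 and 122 CPM in ZC3H7B-OE. Its log2 change was -0.92 (SE 0.15) and -1.08 (SE 0.15). PSMC4 changed by -1.09 and -0.85, and PSMD9, a base chaperone, by -1.40 and -1.53, called in both lines (control -1.03 and -1.01 without replicate 3 of 0 h). PSMC1 fell too (-0.53 and -0.82), although in control its call was lost without replicate 3 of 0 h (adjusted p = 0.12). ADRM1 fell by 1.02 (adjusted p = 0.0049) and by 0.77 (adjusted p = 0.021) on the log2 scale. PSMD10 fell in control (-1.06, adjusted p = 0.0059), and without that library its change was -0.20 (adjusted p = 0.18). The control calls of PSMC3 and PSMC6, ATPases with 137 and 219 reads, were lost without it too.

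Assembly genes went both ways. PSMG3 fell from 90.5, 106 and 223 CPM to 38.0, 43.8 and 37.8 CPM in control and from 91.4, 107 and 94.5 CPM to 36.4, 35.1 and 35.5 CPM in ZC3H7B-OE, by log2 changes of -1.78 (SE 0.23) and -1.45 (SE 0.23); the first was -1.29 without replicate 3 of 0 h. PSMG2 rose in ZC3H7B-OE, from 19.0, 19.9 and 18.0 CPM to 52.5, 69.6 and 65.2 CPM (log2 1.72, SE 0.25, adjusted p = 5.7e-07). In control it changed by 0.44 (adjusted p = 0.11), and by 0.94 (adjusted p = 0.00011) without replicate 3 of 0 h. PSME4 rose in both lines (log2 1.19 and 1.53), while PSME1 fell from 26.6, 37.5 and 96.8 CPM to 8.83, 8.76 and 15.7 CPM in control (log2 -2.20, SE 0.37, adjusted p = 5.6e-06, and -1.49 without replicate 3 of 0 h) and by 0.97 on the log2 scale in ZC3H7B-OE. NFE2L1 did not change in control by this test (log2 0.03, SE 0.16) and fell in ZC3H7B-OE (log2 -0.44, SE 0.16, adjusted p = 0.014).

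The ratio of summed core to summed cap reads fell in both lines, and by less when 3 genes with many reads were left out. The core sum was 1986, 2094 and 5687 CPM in control at 0 h and 1145, 1011 and 992 CPM at 6 h, and in ZC3H7B-OE 1746, 1963 and 1740 CPM and then 927, 995 and 972 CPM. The cap sum was 1262, 1189 and 2064 CPM in control at 0 h and 1546, 1319 and 1396 CPM at 6 h, and in ZC3H7B-OE 1159, 1149 and 1151 CPM and then 1206, 1416 and 1338 CPM. The ratio of core to cap in control was 2.03 ± 0.635, 1.24 ± 0.129, 0.866 ± 0.0310 and 0.740 ± 0.0280 (SD, n = 3) in the order of the 4 times. In ZC3H7B-OE it was 1.58 ± 0.115, 1.42 ± 0.106, 0.997 ± 0.191 and 0.733 ± 0.0334. In both lines every library at 0 h was above every library at 6 h, and at 6 h the lines overlapped. Without control at 0 h, replicate 3, the control ratio at 0 h was 1.67 ± 0.133 (SD, n = 2). With PSMA4, PSMB3 and PSMD12 left out of the sums, the control ratio was 0.805 ± 0.109 before the chase and 0.635 ± 0.0116 at its end (SD, n = 3). The ZC3H7B-OE ratio was then 0.633 ± 0.0042 and 0.586 ± 0.0117. With these 3 genes and control at 0 h, replicate 3 all left out, the control ratio at 0 h was 0.743 ± 0.0288 (SD, n = 2). Without PSMD12 the cap sum fell as well, from 1067 ± 1.66 CPM to 811 ± 52.8 CPM in ZC3H7B-OE and from 1369 ± 472 CPM to 823 ± 76.2 CPM in control. The control libraries of 0 h were at 1132, 1061 and 1912 CPM in that sum, the last of them replicate 3. Without PSMA4 and PSMB3 the core sum fell from 676 ± 3.50 CPM to 475 ± 28.3 CPM in ZC3H7B-OE.

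**Figure D4:**
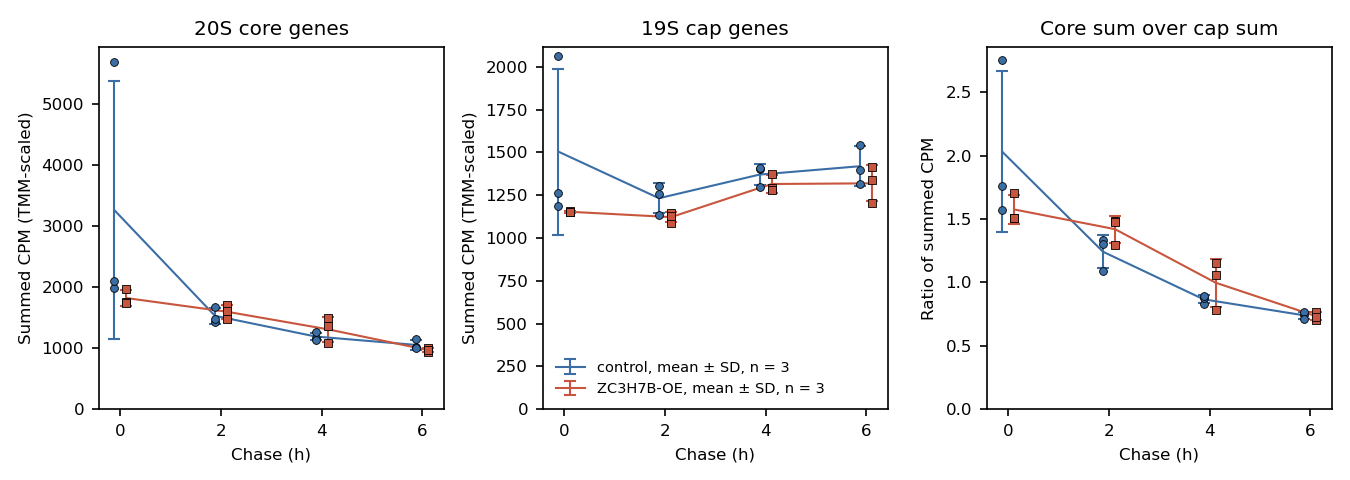
Summed CPM of the 20S core genes (left), of the 19S cap genes (middle) and the ratio of the 2 sums (right), on y axes from 0, against hours of chase (x axis); each point is a library and lines join means ± SD (n = 3) of control (circles) and ZC3H7B-OE (squares). The control ratio falls from 2.03 to 0.740 and the ZC3H7B-OE ratio from 1.58 to 0.733, and the control library at 5687 CPM is replicate 3 of 0 h, without which the control ratio at 0 h is 1.67.

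The third comparison followed the label. Labelled reads of most proteasome genes fell over the chase, as those of most genes did, and the loss was not called different between the lines for any of them. The slope of labelled reads per hour, scaled to all reads, was below 0 and called for 29 of 36 proteasome genes in control and 25 of 36 in ZC3H7B-OE, against 75.6% and 72.7% of 8490 entries. All 10 tested core genes fell in both lines, with a median slope of -0.36 log2 per h in control and -0.26 in ZC3H7B-OE. Of 16 tested cap genes 11 fell in control and 9 in ZC3H7B-OE, with medians of -0.27 and -0.21. The median of all entries was -0.26 and -0.24. Without control at 0 h, replicate 3, the core median in control was -0.28 and the cap median -0.26. None of the 36 genes was called for a difference of slopes, against 0% of all entries, and 4 of them had an unadjusted p under 0.05. With slopes fitted over 2 to 6 h no proteasome gene was called either, while 63 of all entries were.

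PSMG3 had the steepest loss in control, at -0.60 log2 per h (SE 0.06), which is a half-life of 1.66 h, with 1.96 h in ZC3H7B-OE, and 1.87 h in control without replicate 3 of 0 h. A half-life here is 1 h divided by the size of the slope, and it includes dilution by new mRNA. It takes the loss as even over 0 to 6 h. The labelled share of the whole library in control was 76.7%, 75.7%, 47.7% and 29.9% at 0, 2, 4 and 6 h, and so fell little before 2 h. PSMA3 and PSMA4 had 2.12 h and 2.16 h in control, and 3.50 h and 2.47 h in ZC3H7B-OE. These control values rested on that library: without it they were 3.68 h and 2.87 h, and PSMD11, ADRM1, PSMB1 and NFE2L1, with 2.24 h, 2.26 h, 2.65 h and 2.79 h, were then among those shorter than both. PSMB2 lost label more slowly, with 3.98 h and 3.76 h, and NFE2L1 with 3.26 h and 3.24 h. PSMC2 had no called loss (slope -0.06, SE 0.05, and -0.01), nor did PSMD12, whose slope was 0.07 (SE 0.04, adjusted p = 0.074) in control and rose by 0.10 per h in ZC3H7B-OE (SE 0.04, adjusted p = 0.019). The smallest unadjusted p for a difference between the lines was that of PSMG2 (slopes of -0.31 and -0.09, unadjusted p = 0.0060, adjusted p = 0.80).

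PSMD12 gained unlabelled reads. In control its labelled reads were 126 ± 9.24 CPM (SD, n = 3) at 0 h and 164 ± 7.67 CPM at 6 h, while unlabelled reads went from 10.5 ± 5.40 to 433 ± 33.1 CPM. In ZC3H7B-OE labelled reads went from 79.9 ± 8.06 to 121 ± 7.63 CPM and unlabelled reads from 6.16 ± 1.23 to 388 ± 48.4 CPM. PSMB3, a core gene, lost both kinds: in ZC3H7B-OE labelled reads went from 370 ± 19.9 to 160 ± 5.31 CPM and unlabelled reads from 148 ± 17.4 to 84.1 ± 3.55 CPM. Its labelled share thus changed little, from 71.4% ± 1.65 to 65.6% ± 1.63. PSME1 stood out for a low share at the end of the pulse, with 18.5%, 13.0% and 21.9% of its reads labelled at 0 h in control and 21.1%, 17.3% and 26.5% in ZC3H7B-OE. PSMC5 was at 63.7%, 56.0% and 49.5% in control at 0 h, and PSMB6 at 62.9%, 63.7% and 62.8%, whereas PSMC2 was at 95.7%, 97.6% and 97.6%.

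At the end of the chase a larger share of summed core reads than of summed cap reads carried label, by a smaller margin when the same 3 genes were left out. Over the tested genes at 0 h the labelled share was 74.1% ± 1.19 (SD, n = 3) in the core, 80.8% ± 1.40 in the cap and 76.7% ± 1.67 in the whole library in control. At 6 h it was 46.5% ± 1.43, 34.0% ± 0.776 and 29.9% ± 0.729, and in ZC3H7B-OE 44.8% ± 0.981, 32.2% ± 0.503 and 29.6% ± 0.660. At 6 h no core value overlapped a cap value in either line. Over all rows of each part the core's share at 6 h was 12.4 ± 0.747 percentage points above the cap's in control and 12.6 ± 1.12 in ZC3H7B-OE, and with PSMA4, PSMB3 and PSMD12 left out 3.19 ± 0.769 and 1.80 ± 0.230 points (SD, n = 3). The unlabelled reads differ behind this: in ZC3H7B-OE those of the core were 520 ± 55.2 CPM at 0 h and 533 ± 24.7 CPM at 6 h, while those of the cap went from 282 ± 30.8 to 895 ± 78.5 CPM, and from 276 ± 31.3 to 508 ± 30.8 CPM without PSMD12. Labelled reads fell in both, from 1297 ± 75.4 to 432 ± 16.3 CPM in the core and from 871 ± 28.0 to 424 ± 27.7 CPM in the cap. Without PSMA4 and PSMB3 the unlabelled reads of the core rose, from 182 ± 10.6 to 289 ± 16.8 CPM.

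**Figure D5:**
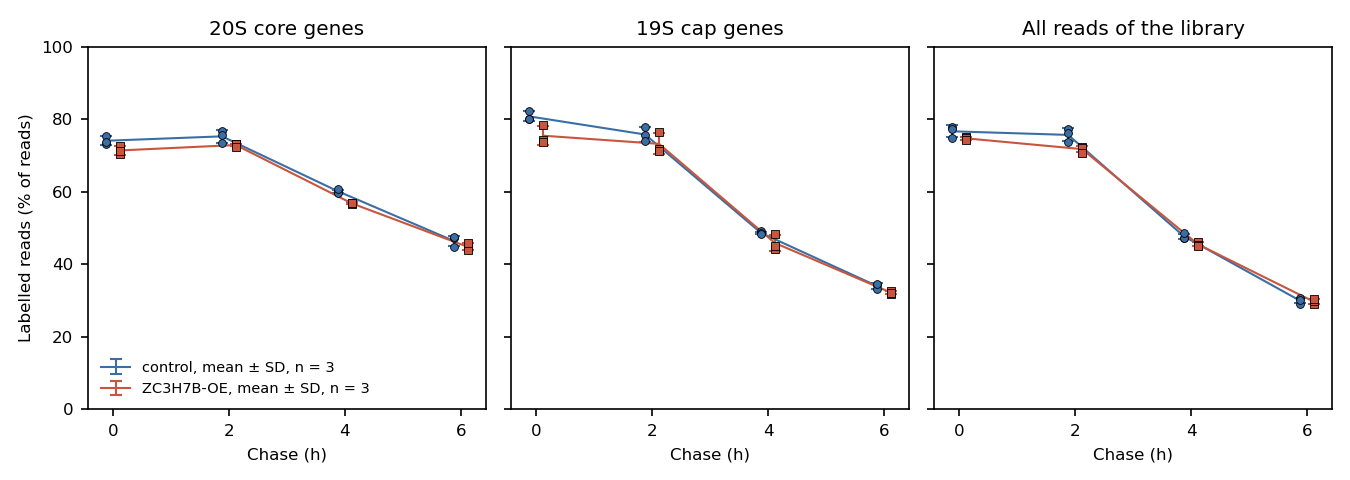
Labelled reads as a percentage of all reads (y axis, 0 to 100%) against hours of chase (x axis) for core genes, cap genes and the whole library; points are libraries and lines join means ± SD (n = 3) of control (circles) and ZC3H7B-OE (squares). At 6 h the core lies between 43.8% and 47.4%, above the cap at 31.8% to 34.7% and the library at 29.0% to 30.5%.

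The odds that a read was labelled were also compared between the lines at each time. No proteasome gene was called at 0 h or 2 h, against 0.907% and 5.07% of entries in either direction, and 1 and 0 of the 38 had an unadjusted p under 0.05. At 4 h PSMB2 (log2 odds -0.89, SE 0.20, adjusted p = 0.0024) and PSMD10 (-0.75, SE 0.20, adjusted p = 0.016) were lower in ZC3H7B-OE, against 3.43% of entries. At 6 h NFE2L1 was higher (0.49, SE 0.12, adjusted p = 0.0046), against 6.24%. Its labelled share was then 27.9%, 25.0% and 26.8% in control and 33.3%, 33.6% and 34.4% in ZC3H7B-OE, with no overlap, after 86.4%, 81.1% and 82.3% against 85.0%, 83.1% and 82.8% at 0 h.

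Of the genes that deliver substrates to the proteasome or act with it, some were called higher and some lower. The list was chosen with earlier results of these data known. Of 35 such genes with a row, 32 were tested; 11 were higher and 10 lower in ZC3H7B-OE over the mean of the times, against 20.3% and 25.4% of entries. Over the chase 12 rose and 9 fell in control, against 30.7% and 29.9%, and 16 rose and 10 fell in ZC3H7B-OE, against 32.8% and 30.6%. UCHL5, the deubiquitinase that binds ADRM1, was lower (log2 -1.21, SE 0.11, adjusted p = 4.3e-11), as were TXNL1, a cap-bound thioredoxin (-0.92), and USP14, another cap deubiquitinase (-0.57). VCP and NPLOC4, which extract NFE2L1 from the membrane, were higher (0.22 and 0.25), and NGLY1, which deglycosylates it, was lower (-0.62, SE 0.23, adjusted p = 0.025). Over the chase the shuttle factors RAD23B, UBQLN1 and UBQLN2 rose in both lines (control log2 1.43, 1.12 and 2.13; ZC3H7B-OE 1.79, 2.32 and 2.05). The polyubiquitin gene UBB fell (-2.13 and -1.65).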

How the data were processed

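The authors deposited tables of read counts and of T>C (labelled) read counts per gene, per the file headers; fastp and GRCh37 are named per the submitters' processing notes, and for the aligner, counting rule and strand setting nothing is stated (not given in the sources used). Members and lists were chosen with earlier results of these data known. All libraries were fitted together by line and time with edgeR 4.0.16 (R 4.3.3; TMM, filterByExpr with a minimum count of 10, quasi-likelihood test, Benjamini-Hochberg adjustment over all 10038 entries); labelled reads, scaled to all reads, were fitted as a slope per hour (8490 entries), and labelled against unlabelled reads as odds. Fold changes are log2. Scripts were tested on simulated data. Genes named with values in single libraries were NFE2L1, DDI2, POMP and ADRM1, in each role group the 3 members with the smallest adjusted p for the mean line difference and its largest rise and fall, the 3 with the smallest adjusted p for the chase change in control, the steepest and shallowest label slopes and the smallest p for their difference; PSMB7 at 4 h was added after its values were seen. Alternatives were DESeq2 1.42.0, limma 3.58.1 (voom), no filter, other scaling, a replicate block, single times, slopes over 2 to 6 h and each library left out. Sums without PSMA4, PSMB3 and PSMD12 were added after seeing the data. Promoter windows come from RefSeq GRCh38.p14, and no gene coordinates of the files' build are given. The labels name no molecular identifiers, so reads can be PCR copies of one another, and the limit for a count of 0 covers counting error only.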

Additional observations from a re-analysis of the deposited data

How the results depend on the processing

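Of the alternatives to single-gene results, 2228 kept the call or its absence, 81 lost the call, 38 gained it and no called direction reversed. These covered the mean line difference of the named genes and the control chase change of the tested members. They also covered the 0 h difference of members called there, which could gain no call. Single genes at 2, 4 and 6 h, in the ZC3H7B-OE chase, for slopes and for odds are not in this tally. A change of sign between fits without a call was counted as kept. The control chase change of PSMD4, not called, thus ran from -0.94 to 0.72 on the log2 scale. The mean line difference had 11 higher genes with 0 h left out and 2 with 6 h left out. At 0 h, 1 gene was higher with DESeq2 size factors, 1 with no filter, 1 by limma-voom, and 0 higher and 3 lower in the 6 libraries of 0 h alone. At 2 h alone 1 was higher and 2 lower. At 4 h, 3 were higher and 3 lower with no filter, 2 higher by DESeq2, 2 by limma-voom, and 7 higher and 4 lower in that time's libraries alone. At 6 h, 1 was higher by DESeq2, 2 by limma-voom, and 4 higher and 5 lower alone. The interaction had 10 calls with no filter and 3 by DESeq2. Calls in either direction among all entries moved as well. In the libraries of 0, 2, 4 and 6 h alone they were 791, 1265, 3104 and 3286, against 3132, 949, 1772 and 1583. Over the mean they were 4455 with 0 h left out and 3681 with 6 h left out, against 4594. For the interaction they were 942 with no filter and 787 by DESeq2, against 174. Called label slopes below 0 numbered 8 in control and 3 in ZC3H7B-OE when labelled reads were scaled to their own library sizes. Of all entries 3145 and 2513 slopes were then called in either direction, against 6588 and 6354. That scaling removes the library's shared loss of label. The cause of the other shifts was not tested.

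With each library left out in turn, the mean line difference had 4 to 8 genes higher and 6 to 10 lower, 0 h 1 to 2 higher and 6 to 14 lower, 2 h 0 to 1 and 1 to 4, 4 h 0 to 6 and 1 to 4, and 6 h 0 to 2 and 0 to 5. The interaction had 0 to 10 calls, the chase change in ZC3H7B-OE 4 to 9 rises, and labelled odds 0 to 1 calls at 2 h and 1 to 2 at 4 h. The core median at 0 h ran from -0.93 to -0.19, and the cap median of the chase change in ZC3H7B-OE from -0.50 to -0.069. The replicate numbers did not pair the libraries (84 pairs with the same number, median r of -0.004, 7 over 0.1; 5 of 24 libraries correlated best with their own number), and with the replicate block 1 gene was higher at 6 h. In an alternative chosen after seeing the data, PSMA4, PSMB3 and PSMD12 were left out of the sums: the core to cap ratio was then 0.805 at 0 h and 0.635 at 6 h in control and 0.633 and 0.586 in ZC3H7B-OE, and the labelled share of the core at 6 h exceeded that of the cap by 3.19 points in control and 1.80 in ZC3H7B-OE. With control at 0 h, replicate 3 left out too, that control ratio at 0 h was 0.743. Genes with few reads, such as PSMD4, limit what these depths can show.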
